A study of Mus musculus with 9 samples.

Results

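The genes described here are 7 genes of B cells and plasma cells, chosen by symbol from the 17846 genes measured: Cd79a, Cd79b, Ms4a1, Cd22, Jchain, Mzb1 and Pou2af1. All 7 were found, and all 7 had enough reads to be tested. RNA sequencing had been run on whole liver of 9 male wild-type C57/BL mice, 3 per group, with 1 library per mouse and no pooling. Control mice received a normal diet and stayed sedentary. NASH mice received the Ath diet, an atherogenic diet with added cholesterol and cholate, for 20 weeks and stayed sedentary. NASH+Exercise mice were on the Ath diet for 12 weeks before treadmill training began, and trained for 8 weeks. The labels give no age for the mice, and the study's methods state that the animals were fasted overnight before the livers were taken. The sequenced mice were a subset of larger groups, and the NASH group is a diet model in mice, without a genetic change.

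B cells recognise antigen through a surface immunoglobulin whose signal is carried into the cell by the CD79A and CD79B chains, encoded by Cd79a and Cd79b. Ms4a1 encodes CD20, a membrane protein of mature B cells, and Cd22 encodes a sialic acid-binding receptor that damps the signal of the antigen receptor. Activated B cells can become plasma cells, which secrete antibody. Jchain encodes the joining chain of secreted IgM and IgA polymers, Mzb1 an endoplasmic reticulum protein that assists antibody assembly, and Pou2af1 a coactivator that works with octamer-binding factors at immunoglobulin and other B cell promoters. The liver holds B cells among its lymphocytes, and hepatocytes supply most of the RNA.

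RefSeq promoter sequences of GRCm38.p6 were held for 4 of the 7 genes. The 250 bases before the transcription start are shown for Cd79a, whose product defines the B cell lineage, and for Cd22 and Pou2af1, whose RNA was higher in NASH. Each is written 5′ to 3′ on the strand of the gene. The positions are chr7:24897247-24897496 on the plus strand for Cd79a, chr7:30879029-30879278 on the minus strand for Cd22 and chr9:51213440-51213689 on the plus strand for Pou2af1. The Cd22 window belongs to a transcript that starts inside the span of the gene. Capitals mark the motif matches described next.
Cd79a: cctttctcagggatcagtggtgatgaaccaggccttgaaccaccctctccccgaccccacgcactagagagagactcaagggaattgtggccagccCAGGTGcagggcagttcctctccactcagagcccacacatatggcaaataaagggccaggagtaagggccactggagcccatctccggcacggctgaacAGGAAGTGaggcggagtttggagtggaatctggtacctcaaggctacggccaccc
Cd22: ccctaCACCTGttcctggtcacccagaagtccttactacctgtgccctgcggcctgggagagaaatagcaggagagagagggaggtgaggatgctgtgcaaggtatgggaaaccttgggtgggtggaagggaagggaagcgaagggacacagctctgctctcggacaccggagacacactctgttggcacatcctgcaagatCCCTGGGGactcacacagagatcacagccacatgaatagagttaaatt
Pou2af1: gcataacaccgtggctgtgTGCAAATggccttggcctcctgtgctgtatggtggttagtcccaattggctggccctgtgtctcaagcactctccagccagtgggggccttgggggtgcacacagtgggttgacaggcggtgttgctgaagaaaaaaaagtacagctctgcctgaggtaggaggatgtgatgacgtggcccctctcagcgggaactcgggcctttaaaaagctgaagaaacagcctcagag

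Motifs bound by B cell factors were searched on both strands in these windows and in that of Jchain. The octamer ATGCAAAT, the site of the factors that Pou2af1 assists, was in 0 of the 4 windows and in 1.6% of the 32851 promoters of the table. Its shorter core TGCAAAT, which lies within the octamer, was found in the Pou2af1 window, from 231 to 225 bases before the start, and in 3.56% of all promoters. The E-box CAGGTG, a site of E proteins, lay in the Cd79a window from base 154 to base 149 before the start and, on the other strand, in the Cd22 window from base 245 to base 240. It was found in 17.2% of all promoters. The Ets motif AGGAAGTG was found in the Cd79a window, 55 to 48 bases before the start, and in 3.14% of all promoters. The core CCCNNGGG of the EBF motif was found in the Cd22 window, 48 to 41 bases before the start, and in 11.8% of all promoters. In the Jchain window none of these letters were found. These matches describe the sequence only.

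The genes lie on different chromosomes except for Cd79a and Cd22. In GRCm38.p6 RefSeq places Cd79a (Entrez Gene 12518) at chr7:24897497-24901858, Cd79b (15985) at chr11:106311341-106314562, Ms4a1 (12482) at chr19:11249679-11266149, Cd22 (12483) at chr7:30865404-30880342, Jchain (16069) at chr5:88519809-88527897, Mzb1 (69816) at chr18:35647265-35650266 and Pou2af1 (18985) at chr9:51213690-51240079. The sources used here do not state whether reads were counted by strand. Annotated antisense transcripts overlap Ms4a1 (4930526L06Rik) and Cd22 (Gm29439), a transcript on the same strand lies within Pou2af1 (Gm47828), and the protein-coding gene Spata24 overlaps Mzb1 on the same strand, so the division of reads is uncertain in these 4 genes.

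Each library held between 20086004 and 22495449 estimated counts in all, yet few of them fell on these genes. The summed count of the 3 mice was lowest for Ms4a1 in Control, with 15 counts and an exact 95% Poisson interval of 8.40 to 24.7, and highest for Cd22 in NASH, with 474 counts and an interval of 432 to 519. Mzb1 had 17 counts in Control (interval 9.90 to 27.2). Pou2af1 had 18 there (interval 10.7 to 28.4). These intervals cover counting error only. The general leukocyte markers, among them Ptprc, which encodes CD45, moved strongly with the diet. Their summed level was 28.6 to 49.3 CPM in Control, 282 to 319 CPM in NASH and 175 to 253 CPM in NASH+Exercise, where CPM are counts scaled to the normalized library size. Hepatocyte markers summed to 113898 to 130825 CPM in Control, to 69573 to 98071 CPM in NASH and to 75007 to 101998 CPM in NASH+Exercise. In NASH against Control 0 of 7 were called, with Alb at -0.52 on the log2 scale (adjusted p = 0.089 by edgeR). Ttr at -0.70 (adjusted p = 0.039) and Ass1 at -0.83 (adjusted p = 0.0074 by edgeR) fell short only of the fold threshold. For 6 of the 7, every NASH mouse lay below every Control mouse, beside 3026 of all 13619 genes tested. In whole liver, more or fewer cells of a type and more or less RNA per cell cannot be told apart.

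On the TPM scale, which corrects for transcript length, Jchain had the highest mean level of the 7 genes in every group and Ms4a1 or Pou2af1 the lowest. In Control the means ran from 2.06 ± 0.118 TPM (SD, n = 3) for Jchain through 1.67 ± 0.705 TPM for Cd79a, 1.13 ± 1.05 TPM for Cd79b, 0.553 ± 0.347 TPM for Cd22, 0.467 ± 0.0751 TPM for Mzb1 and 0.200 ± 0.191 TPM for Ms4a1 to 0.190 ± 0.0985 TPM for Pou2af1. The ranges of each gene and the next one in this order overlapped in Control. In NASH, Cd22 took the second place at 3.38 ± 0.375 TPM, after Jchain at 3.75 ± 1.66 TPM and before Cd79b at 3.26 ± 0.624 TPM and Cd79a at 2.54 ± 0.760 TPM, and the ranges of neighbours among these 4 overlapped. Mzb1 at 1.09 ± 0.197 TPM, Pou2af1 at 0.667 ± 0.0987 TPM and Ms4a1 at 0.380 ± 0.123 TPM lay below them, each apart from its neighbours. In NASH+Exercise the order was the same as in NASH, from 2.96 ± 1.46 TPM for Jchain to 0.200 ± 0.181 TPM for Ms4a1, and all neighbouring ranges overlapped.

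The first question was how these genes differed between livers with diet-induced NASH and Control livers. Of the 7 genes, Cd22 and Pou2af1 rose in NASH and 0 fell. The other 5 had higher means in NASH but did not pass the test. Among the chains of the antigen receptor complex, Cd79a was measured at 1.13, 1.28 and 1.94 CPM in Control replicates 3, 4 and 29 and at 1.70, 1.09 and 2.30 CPM in NASH replicates 5, 19 and 20. The values of the groups were interleaved, and NASH replicate 19 lay below every Control mouse in CPM. In TPM it was at 1.78, above Control replicates 3 and 4 at 1.28 and 1.24. Cd79b was at 0.322, 0.612 and 1.68 CPM in the same Control mice and at 1.75, 1.67 and 2.55 CPM in the same NASH mice. Only Control replicate 29 reached the NASH range. Ms4a1 was at 0.107, 0.167 and 0.510 CPM in Control and at 0.499, 0.233 and 0.468 CPM in NASH. Here Control replicate 29 was the highest of all 9 mice in CPM. In TPM it was at 0.42, below NASH replicates 5 and 20 at 0.47 and 0.43.

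Cd22, the inhibitory coreceptor, stood apart from the other surface genes. It was at 0.698, 1.39 and 2.19 CPM in the Control mice, at 6.44, 6.56 and 6.38 CPM in the NASH mice and at 4.58, 3.78 and 4.48 CPM in NASH+Exercise replicates 8, 18 and 22. None of the 3 groups overlapped, and the NASH mice lay close together. The ratio of Cd22 to Cd79a counts within a mouse, a measure chosen after the values were seen, was 0.619, 1.09 and 1.13 in Control, 3.78, 6.04 and 2.78 in NASH and 3.39, 4.71 and 5.11 in NASH+Exercise. It was higher in every mouse on the Ath diet than in every Control mouse, and it was given no test. The groups were already apart in Cd22 alone, while Cd79a differed by 0.22 on the log2 scale in NASH. How many of all genes had a ratio to Cd79a that separated in this way was not computed. Markers of macrophages and Kupffer cells, headed by Adgre1 (log2 fold change of 2.87 in NASH against Control), moved in the same order as Cd22, with summed levels of 70.7 to 130 CPM in Control, 667 to 763 CPM in NASH and 498 to 589 CPM in NASH+Exercise. Of these markers, 6 of 7 rose in NASH. The mean summed levels of general leukocyte, T cell, NK cell, neutrophil and conventional dendritic cell markers moved in the same order. The part of any of these cells in the Cd22 result was not tested.

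**Figure D1:**
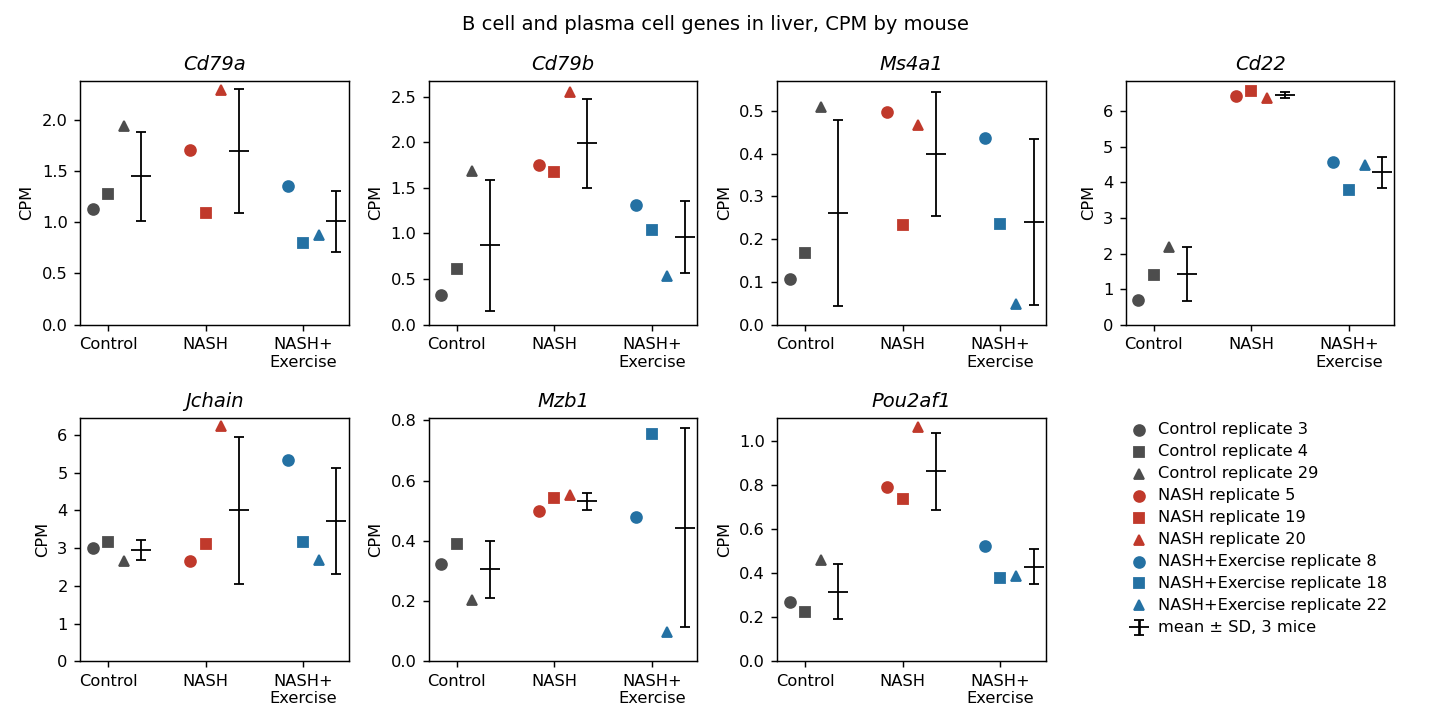
Level of each of the 7 genes in CPM (y axis) for each mouse of the 3 groups (x axis), with 1 point per mouse and the mean ± SD of 3 mice in black. Cd22 lies between 6.38 and 6.56 CPM in NASH and at or below 2.19 CPM in Control, while for Cd79a the groups overlap.

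Among the genes of antibody secretion, Jchain was at 3.01, 3.17 and 2.65 CPM in the Control mice, at 2.66, 3.10 and 6.25 CPM in the NASH mice and at 5.32, 3.16 and 2.68 CPM in the NASH+Exercise mice. The groups overlapped, and NASH replicate 20 and NASH+Exercise replicate 8 were the high ones. Mzb1 was at 0.322, 0.389 and 0.204 CPM in Control, at 0.499, 0.543 and 0.553 CPM in NASH and at 0.480, 0.755 and 0.0975 CPM in NASH+Exercise. Every NASH mouse lay above every Control mouse, while the trained mice spread over both. Pou2af1 was at 0.268, 0.222 and 0.459 CPM in Control, at 0.790, 0.737 and 1.06 CPM in NASH and at 0.524, 0.378 and 0.390 CPM in NASH+Exercise. The NASH mice were apart from both other groups, and the trained mice overlapped with Control.

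In the model across all 13619 genes tested, Cd22 was 4.49-fold higher in NASH than in Control, or 2.17 ± 0.31 (standard error) on the log2 scale, with an adjusted p of 0.00043 from the quasi-likelihood test of edgeR adjusted by Benjamini-Hochberg. Pou2af1 was 2.67-fold higher, or 1.42 ± 0.38 on the log2 scale, with an adjusted p of 0.015 by the same test. A gene was called when the adjusted p was under 0.05 and the absolute log2 fold change above 1. By this rule 2 of the 7 genes were called higher, beside 15.3% of all genes tested, and 0 were called lower, beside 3.03%. Ms4a1, Mzb1 and Pou2af1 did not pass the filter on low counts when the NASH mice were left out of the fit. Pou2af1 had 19, 19 and 25 counts in NASH, 5, 4 and 9 in Control and 12, 8 and 8 in NASH+Exercise. Mzb1 had 12, 14 and 13 counts in NASH, 6, 7 and 4 in Control and 11, 16 and 2 in NASH+Exercise. The call for Pou2af1 was lost when single mice were left out, at 1.31 without Control replicate 3 (adjusted p = 0.058), 1.21 without Control replicate 4 (adjusted p = 0.056) and 1.24 without NASH replicate 20 (adjusted p = 0.058). It was also lost with DESeq2 on the 6 mice, at 1.41 (adjusted p = 0.093), and with limma on log2(TPM + 1), where 0.49 (adjusted p = 0.0031) was below the fold threshold. By contrast, Cd22 was called under every alternative.

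Cd79b had a log2 fold change of 1.17 (95% confidence interval 0.03 to 2.31, adjusted p = 0.10 by edgeR). Without Control replicate 29 it was 2.04, with an adjusted p of 0.0087 by edgeR, which passed the thresholds. With all mice kept it also passed with limma on log2(TPM + 0.1), at 1.77 (adjusted p = 0.028), and on log2(TPM + 1), at 1.099 (adjusted p = 0.021). Control replicate 29 had the highest level within Control in 5 of the 7 genes and the lowest in the other 2, Jchain and Mzb1. It was also the highest in Control for Ptprc (5.97 CPM, against 3.70 and 1.56 CPM). The remaining 4 genes did not pass the test, and their intervals included 0. The differences were 0.22 for Cd79a (interval -0.56 to 1.004), 0.57 for Ms4a1 (-0.96 to 2.103), 0.44 for Jchain (-0.34 to 1.23) and 0.80 for Mzb1 (-0.47 to 2.06) on the log2 scale. These intervals reach differences of 2-fold or more for each gene, so a change of that size could not be told from none at this depth and number of mice.

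The median log2 fold change of the 7 genes was 0.80, beside 0.01 over all genes tested. The groups did not overlap, with NASH higher, in 3 of the 7 genes (Cd22, Mzb1 and Pou2af1) and in 27.4% of all genes. Of these, Mzb1 and Pou2af1 had passed the filter on low counts only because of the NASH mice. Scaling mattered for the whole table. With library size alone the median of all genes was 0.36 and that of the 7 genes 1.16, and on log2(TPM + 0.1) they were 0.44 and 1.07. Of all genes called in NASH against Control, 2082 were higher and 412 lower, and on log2(TPM + 0.1) with limma these were 2946 and 187. No direction among the 7 genes changed with these scalings in this comparison.

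**Figure D2:**
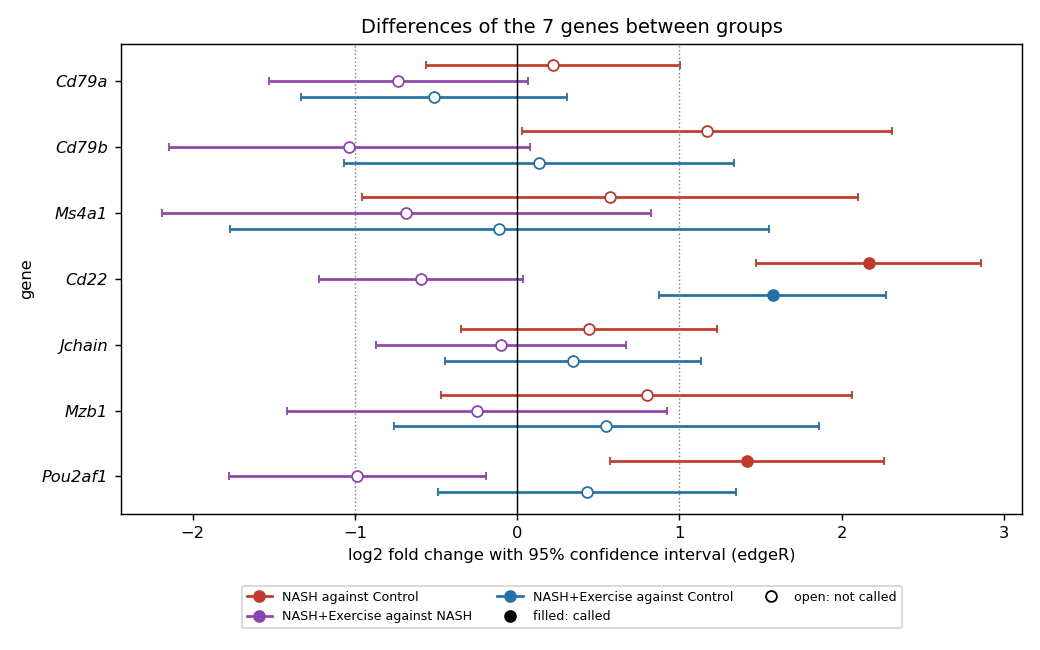
Log2 fold change of each gene (y axis) in the 3 comparisons, as points with 95% confidence intervals from edgeR (x axis), filled where the gene was called. Dotted lines mark the fold threshold. Filled points are seen for Cd22 at 2.17 and 1.58 and for Pou2af1 at 1.42, and none for NASH+Exercise against NASH.

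The second question was how trained NASH mice differed from sedentary NASH mice. All 7 genes had lower means in NASH+Exercise, and 0 were called in either direction by edgeR, beside 0.103% of all genes called higher and 0.0367% called lower. DESeq2 and limma also called 0 of the 7. At an unadjusted p under 0.05 edgeR found 1 gene, Pou2af1, with a log2 fold change of -0.99 (95% confidence interval -1.78 to -0.19, adjusted p = 0.24). Cd79b, Cd22 and Pou2af1 were lower in every trained mouse than in every NASH mouse. These are 3 of 7 genes, beside 14.9% of all genes tested. Of the 3, Pou2af1 had passed the filter on low counts only because of the NASH mice.

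For the receptor and surface genes the log2 fold changes were -0.73 for Cd79a (interval -1.53 to 0.07), -1.03 for Cd79b (-2.15 to 0.08), -0.68 for Ms4a1 (-2.19 to 0.82) and -0.59 for Cd22 (-1.22 to 0.04). Cd79a was at 1.35, 0.803 and 0.877 CPM in the trained mice, and Cd79b at 1.31, 1.04 and 0.536 CPM. Ms4a1 was at 0.436, 0.236 and 0.0487 CPM, the last of these being a single count. For Jchain and Mzb1 the differences were -0.10 (interval -0.87 to 0.67) and -0.25 (-1.42 to 0.92). Their sign rested on single mice: without NASH replicate 20 that of Jchain was 0.37, and without NASH+Exercise replicate 22 that of Mzb1 was 0.21. Except for Jchain, the intervals reach a decrease to below 0.5 of the level in NASH.

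Mice of the trained group differed in their level of Ptprc, while their summed general leukocyte markers ranged from 175 to 253 CPM. NASH+Exercise replicate 8 was the highest of its group in 6 of the 7 genes and had 34 CPM of Ptprc. NASH+Exercise replicate 22 was the lowest in 4 of the 7 and had 11.9 CPM of Ptprc, and replicate 18 lay between them at 21.5 CPM. The sedentary NASH mice did not follow this order. NASH replicate 19 had the highest Ptprc of its group, at 44.4 CPM, and was the lowest in 4 of the 7 genes. The general leukocyte markers had a median log2 fold change of -0.58 in this comparison, beside -0.68 for the 7 genes and -0.03 for all genes tested. With library size alone these medians were -0.85 for the 7 genes and -0.23 for all genes. Of all genes called here, 14 were higher and 5 lower, and with limma on log2(TPM + 0.1) 14 were higher and 10 lower. Other methods gave more genes that were lower than higher, with 65 higher and 109 lower by DESeq2 on 9 mice, 78 and 126 by DESeq2 on 6 mice and 25 and 78 by limma on log2(TPM + 1). The part of the general leukocyte level in the values of the 7 genes was not tested.

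In NASH+Exercise compared with Control, Cd22 was the only one of the 7 genes called, at 2.98-fold or 1.58 ± 0.32 (standard error) on the log2 scale, with an adjusted p of 0.0044 by edgeR. This is 1 of 7, beside 10.4% of all genes called higher and 3.07% called lower, and it was also the only gene of the 7 whose groups did not overlap, beside 21.5% of all genes. On log2(TPM + 1), a scale that compresses low values, its difference was 0.85 and below the fold threshold. Pou2af1, at 0.43 (interval -0.49 to 1.35), Mzb1, at 0.55 (-0.76 to 1.86), and Jchain, at 0.34 (-0.45 to 1.13), had higher means than Control without passing the test. Cd79b was at 0.14 (-1.07 to 1.34), Ms4a1 at -0.11 (-1.77 to 1.55) and Cd79a at -0.51 (-1.33 to 0.31). For Ms4a1 the sign changed to 0.04 with library size alone. All 3 comparisons share mice, so they are not independent of each other.

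Each gene was then set against Ptprc, which all leukocytes express, within each mouse. Ptprc was at 3.74 ± 2.21 CPM (SD, n = 3) in Control, 35 ± 9.26 CPM in NASH and 22.4 ± 11.1 CPM in NASH+Exercise. Cd79a counts were 30.4%, 82.1% and 32.5% of the Ptprc counts in the Control mice, 6.57%, 2.45% and 6.65% in the NASH mice and 3.98%, 3.74% and 7.38% in the NASH+Exercise mice. On the log2 scale the Cd79a ratio was lower by 3.19 in NASH, with means of -1.21 ± 0.801 (SD, n = 3) in Control and -4.40 ± 0.828 in NASH. The ratio was lower in every NASH mouse than in every Control mouse for 6 of the 7 genes, all except Cd22. The exact two-sided permutation p was 0.1 for each of these 6, the smallest that 3 mice against 3 can give, or 0.18 after adjustment over 11 ratios. For 92.2% of all genes the ratio to Ptprc was likewise lower in every NASH mouse, so the 6 of 7 was close to the background. In NASH+Exercise the ratio was lower in every mouse than in every Control mouse for 5 of the 7 genes, all except Cd22 and Mzb1, beside 85.5% of all genes.

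For Cd22 the ratio to Ptprc overlapped between the groups. It was 18.8%, 89.3% and 36.8% of Ptprc in Control, 24.8%, 14.8% and 18.5% in NASH and 13.5%, 17.6% and 37.7% in NASH+Exercise, with a difference of -1.06 on the log2 scale for NASH against Control (exact permutation p = 0.2). Between NASH+Exercise and NASH the 7 ratios to Ptprc differed by -0.41 to 0.67, with exact permutation p from 0.3 to 1.0 and overlapping groups. The balance of secretory and surface genes was compared by the ratios of Jchain and Mzb1 to Ms4a1 and Cd79a. Jchain counts were 2.67, 2.48 and 1.37 times those of Cd79a in Control, 1.56, 2.86 and 2.72 times in NASH and 3.94, 3.94 and 3.06 times in NASH+Exercise. This ratio was higher in every trained mouse than in every mouse of the other groups, by 0.65 on the log2 scale against NASH (exact permutation p = 0.1, adjusted p = 1.0) and by 0.80 against Control (exact permutation p = 0.1, adjusted p = 0.18). The other 3 ratios overlapped between the groups in each comparison. In the fit against NASH, Jchain differed by -0.10 and Cd79a by -0.73, beside a median of -0.03 over all genes tested. Against Control these values were 0.34, -0.51 and 0.003. The share of all genes whose ratio to Cd79a separated likewise was not computed.

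**Figure D3:**
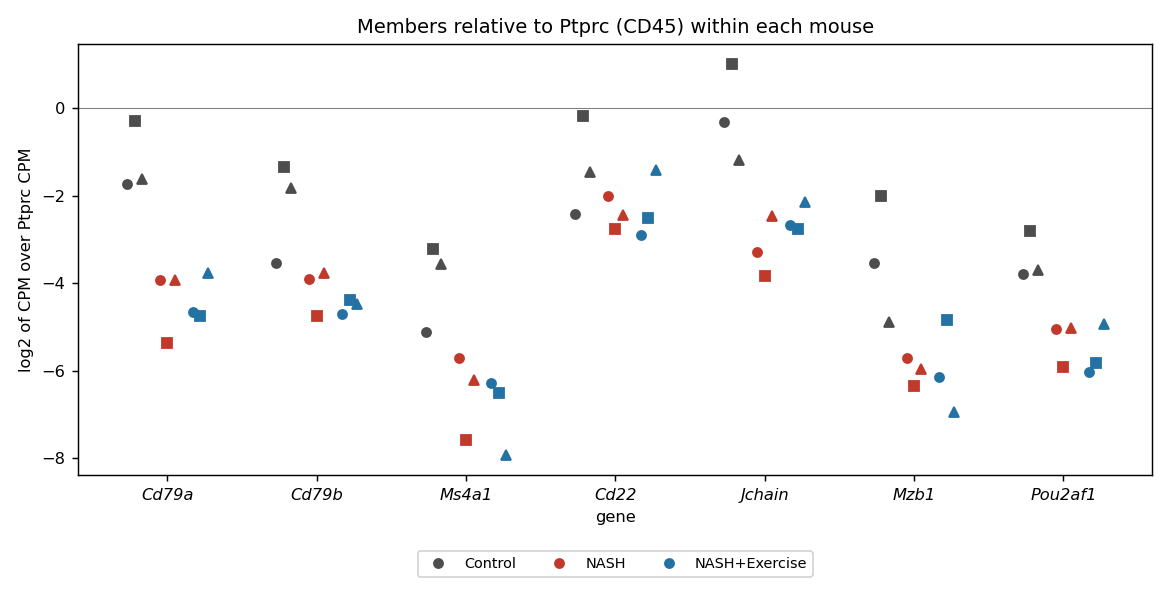
Log2 of the CPM of each gene over the CPM of Ptprc in the same mouse (y axis), with 1 point per mouse, coloured by group, for the 7 genes (x axis). All NASH and NASH+Exercise mice lie below the Control mice for Cd79a, whereas the groups overlap for Cd22.

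Gene lists of B cell biology placed the 7 genes among their pathways. Their counts in NASH against Control are to be read beside the 15.3% of all genes called higher and the 3.03% called lower. Of the list of B cell surface and lineage markers, 14 of 16 genes were tested, 7 rose in NASH and 0 fell, with a median log2 fold change of 1.598. The largest increases were in Cd180 (4.17), a Toll-like receptor homologue, Cd72 (3.85), a B cell coreceptor that macrophages also express, and Ly6d (2.93), a surface marker of lymphoid precursors. Fcer2a, the low-affinity IgE receptor, was at -0.01 (interval -0.67 to 0.66) and was not called. Of the signalling genes of the B cell receptor, all 16 were tested, 12 rose and 0 fell, with a median of 2.62. They were led by Btk (3.12), the Bruton tyrosine kinase, Plcg2 (3.07), a phospholipase downstream of it, and Pik3cd (2.93), a phosphoinositide kinase subunit, all of which myeloid cells use as well. Blk, a Src kinase largely restricted to B cells, was at 0.24 (-1.17 to 1.66).

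Of the B cell transcription factors, 8 of 10 were tested, 5 rose and 0 fell in NASH, with a median of 1.72. Pou2f2 (2.98), an octamer-binding partner of Pou2af1, Ikzf3 (2.64), a lymphoid zinc finger factor, and Irf8 (2.63), a factor of B cells and myeloid cells, had the largest changes, while Pax5 and Ebf1 had too few reads to be tested. In the list of plasma cell and antibody secretion genes, 17 of 18 were tested, 4 rose and 0 fell, with a median of 0.38. The 4 of 17 lay near the share of all genes called higher. Slamf7 (4.46), a receptor of plasma cells, NK cells and macrophages, Prdm1 (2.73), the regulator Blimp-1, and Irf4 (2.58), which acts before it in plasma cell formation, were the leading ones, each with an adjusted p under 0.05 by edgeR. Sdc1, which encodes CD138 and is also expressed by hepatocytes, was at -0.97 (interval -1.31 to -0.63), short of the fold threshold. With adjusted p alone, 7 of the 17 genes were called, beside 4846 of all 13619 genes tested. Among these 7, Sdc1 and Ell2 (-0.42) were lower in NASH.

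Among survival factors, chemoattractants and their receptors, 14 of 20 genes were tested, 9 rose and 1 fell in NASH, with a median of 2.27. Ccl19, a chemokine of lymphoid tissue, had a fitted value of 4.04 and levels of 0 to 0.222 CPM in Control and 0.510 to 2.06 CPM in NASH. Il7, a lymphocyte growth factor, was at or under 3 counts in every Control mouse, and its mean of 0.567 CPM in NASH was at least 3.54-fold higher than that floor of 3 counts per library. Cxcr4, the receptor of Cxcl12, rose by 3.21 on the log2 scale. Tnfsf13b, which encodes the B cell survival factor BAFF, rose by 2.64, and Tnfrsf13b, which encodes its receptor TACI, by 2.46, while Cxcl13, the B cell attractant, was at 1.07 (-0.20 to 2.33) and was not called. These last 3 genes were chosen after their values were seen. Of antibody transport and Fc receptor genes, all 7 were tested, 5 rose and 0 fell, with a median of 3.13. Fcgr4 (3.81) and Fcgr1 (3.66), receptors for IgG on myeloid cells, and Fcer1g (3.19), their signalling chain, led this list. Pigr, which carries polymeric immunoglobulin and its joining chain across epithelia, was at -0.06 (-0.41 to 0.28). Of 13 listed immunoglobulin constant and surrogate chain genes, 0 matched a measured gene by symbol, so none was analysed.

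Compared with NASH, trained mice showed 0 called genes in each of these lists in the edgeR fit to all mice. In that fit 32 of the 76 genes tested in these lists had an unadjusted p under 0.05, beside 2078 of all 13619 genes tested. Of the plasma cell and antibody secretion genes, edgeR called 1 on the 6 mice and 1 without Control replicate 4. Without NASH+Exercise replicate 8 it called 1 of these genes and 1 of the surface and lineage markers. With DESeq2 on the 6 mice, 2 of the surface and lineage markers and 3 of the plasma cell and antibody secretion genes were called. The median was -0.75 for surface and lineage markers, -0.49 for receptor signalling, -0.58 for transcription factors, -0.56 for survival factors and chemoattractants and -0.38 for antibody transport and Fc receptors. For plasma cell and antibody secretion genes it was 0.37, with 12 of 17 values above 0. Among the highest were Derl3 (2.26), Creld2 (1.18) and Xbp1 (0.63), genes of protein folding and quality control in the endoplasmic reticulum that hepatocytes also use. The plasma cell regulators Irf4 and Prdm1 were at -1.07 and -0.51, and Slamf7 at -1.46. None of these 6 genes, chosen after their values were seen, was called in the edgeR fit to all mice. Against Control, the counts of genes called higher in the trained mice were 4, 10, 3, 7, 7 and 4 in the surface, signalling, transcription factor, secretion, survival and Fc receptor lists, and 0, 0, 0, 1, 1 and 0 were called lower, beside 10.4% and 3.07% of all genes. The surface list was led there by Cd180 (3.43), Cd72 (3.41) and Cd37 (1.31), a tetraspanin, and the signalling list by Blnk (2.796), the adaptor between SYK and BTK, Plcg2 (2.52) and Btk (2.51). Pou2f2 (2.79), Irf8 (2.02) and Ikzf3 (1.94) led the transcription factors. Slamf7 (3.004), Derl3 (2.99), a component of endoplasmic reticulum-associated degradation, and Prdm1 (2.22) led the secretion genes. Cxcr4 (2.505) and Cd40 (2.25), the receptor for T cell help, were among the leading survival and chemoattractant genes, and Fcgr4 (3.42), Fcgr1 (3.07) and Fcer1g (2.78) led the Fc receptor list. Derl3 was at 0.483 to 4.73 CPM in Control, 2.34 to 3.91 CPM in NASH and 11.3 to 19.1 CPM in NASH+Exercise. Il7 in the trained mice was at least 4.53-fold higher than the floor in Control.

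**Figure D4:**
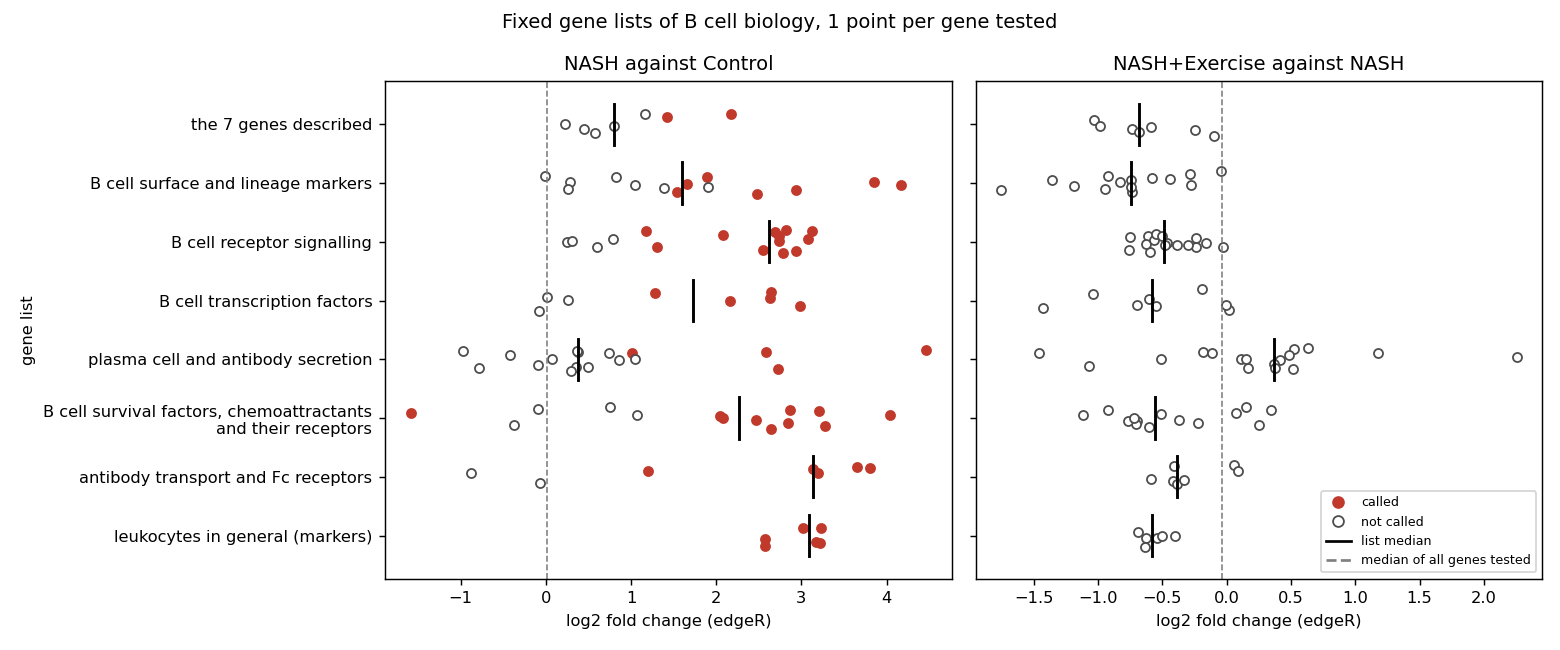
Log2 fold change (x axis) of every tested gene in the fixed lists and among the general leukocyte markers (y axis), for NASH against Control and for NASH+Exercise against NASH, with called genes filled. Black bars are list medians and the dashed line is the median of all genes tested. In NASH the 7 genes have a median of 0.80 and the leukocyte markers one of 3.09.

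Markers of other cell types gave the setting of these changes. T cell markers rose in NASH in 8 of 8 genes, with a median of 2.16, and their summed level went from 3.54 to 4.80 CPM in Control to 17.7 to 23 CPM in NASH and 13.6 to 15.3 CPM in NASH+Exercise. Cd3e, a chain of the T cell receptor complex, was at 0.322 ± 0.113 CPM (SD, n = 3) in Control and 2.199 ± 0.292 CPM in NASH. Neutrophil markers, headed by S100a8 (4.49), summed to 7.84 to 12.4 CPM, 32.9 to 35.6 CPM and 22.5 to 34.7 CPM in the same order, and 5 of 7 rose in NASH. Plasmacytoid dendritic cells share several genes with B cells. Their marker Siglech was at 0.0556 to 0.357 CPM, 1.41 to 1.91 CPM and 0.439 to 1.31 CPM, and 3 of the 4 genes tested rose in NASH. Their list summed to 85.4 to 125 CPM in Control, 196 to 249 CPM in NASH and 188 to 269 CPM in NASH+Exercise, with Cox6a2 and Klk1 at 0 in every Control mouse. Nearly all of this sum was Bst2, an interferon-induced gene of many cell types, with means of 102, 215 and 226 CPM in the same order. Conventional dendritic cell markers, headed by Flt3 (2.58), rose in 4 of 6 genes and summed to 9.84 to 13.9 CPM in Control, 37.6 to 54.4 CPM in NASH and 21.4 to 38.0 CPM in NASH+Exercise. NK cell markers, headed by Ncr1, which had too few reads to be tested and lay at 0 to 0.204 CPM in Control, 0.332 to 0.466 CPM in NASH and 0 to 0.262 CPM in NASH+Exercise, rose in 4 of 5 genes tested, and their sums were 1.501 to 2.96 CPM, 6.86 to 9.05 CPM and 2.19 to 4.50 CPM. Red blood cell markers, headed by Hbb-bs (0.19) and a sign of blood left in the tissue, rose in 1 of 6 genes and overlapped between the groups, with sums of 439 to 654 CPM in Control, 439 to 744 CPM in NASH and 598 to 813 CPM in NASH+Exercise. The part of these cell types in the values of the 7 genes was not tested.

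The genes most alike in pattern were found from the root mean square difference between log2 CPM profiles over the 9 mice, each centred on its own mean. Nearest to the mean profile of Cd79a, Cd79b, Ms4a1 and Cd22 were Clec14a (0.197), Cmpk2 (0.202), Zc3h12d (0.208), Zfp831 (0.230) and Endou (0.231), each highest on average in NASH. A gene with no variation at all would lie at 0.633. Cd79b itself lay at 0.234 from this mean, Ms4a1 at 0.360, Cd79a at 0.474 and Cd22 at 0.645, so that Cd22 was as far from the mean of its group as a flat profile. Nearest to the mean profile of Jchain, Mzb1 and Pou2af1 were Il9r (0.154), Tbc1d4 (0.168), Itgae (0.184), Wdr19 (0.184) and Plk2 (0.186), with a flat profile at 0.421. These distances are descriptions over 9 mice of 3 groups, so a shared difference between the groups brings genes close to each other.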

How the data were processed

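Liver RNA of 9 mice was sequenced, with 1 library per mouse. For each gene the authors deposited an estimated count without normalization, together with TPM and FPKM values. The FPKM values deposited by the authors were not used. The submitters' processing notes name HISAT2 2.1.0, Bowtie2 2.2.5, RSEM 1.2.8 and the build GRCm38.p6, without stating their roles. Values held in more than 1 file were compared, 428304 in all, and 0 differed. RefSeq symbols matched 17728 of 17846 Entrez Gene identifiers.

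Rounded counts were filtered with filterByExpr (group design, minimum count 10, minimum total 15) and scaled by TMM. The quasi-likelihood model of edgeR 4.0.16 under R 4.3.3 was fitted robustly to the 9 mice together, and group was its single factor. Confidence intervals are at the 95% level. CPM values are counts scaled to the TMM-normalized library size. The 9 samples are separate mice, totals per library were 20086004 to 22495449 counts, and 3 mice per group limit the precision. Alternatives used DESeq2 1.42.0, limma 3.58.1 on log2 TPM with a pseudocount of 0.1 or 1, other scalings, no filter, and each mouse left out. Ratios within a mouse were compared by exact permutation in Python 3.11.15. The scripts were tested on simulated data.

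Named were the 7 genes, the up to 3 called genes of each list with the largest change in a comparison, the first gene of each marker list and the 5 genes nearest to each of 2 mean profiles. Any other gene named was chosen after its values were seen. The members and lists were chosen with earlier results of these data known. The summed level of the B cell and plasma cell marker list is not reported here.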

Additional observations from a re-analysis of the deposited data

How the results depend on the processing

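No paired analysis was possible because the groups share no replicate numbers. With 3 mice per group and few counts per gene, both the spread between mice and the depth limit these results, and groups of 3 were not tested for outlying mice. The number of the 7 genes called higher in NASH against Control was 2, went to 1 with DESeq2 on 6 mice and to 3 with limma on log2(TPM + 0.1), and ranged from 1 to 3 when each mouse was left out. In NASH+Exercise against Control it was 1, and 0 on log2(TPM + 1). In NASH+Exercise against NASH 0 of the 7 were called under every alternative run. All genes called in NASH against Control numbered 2494, or 4846 by adjusted p alone. In NASH+Exercise against NASH they numbered 19, or 174 with DESeq2 on 9 mice, 204 with DESeq2 on 6 mice, 103 on log2(TPM + 1) and 0 to 34 with mice left out. In NASH+Exercise against Control they numbered 1836, or 1068 on log2(TPM + 1) and 3423 by adjusted p alone.

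Of 375 repeats of the log2 fold changes of the 7 genes, 351 kept direction and call, and 15 changed sign, none of them in a called gene. With mice left out, NASH against Control ranged from -0.061 to 0.45 for Cd79a and from -0.030 to 0.66 for Jchain. NASH+Exercise against NASH ranged from -0.45 to 0.37 for Jchain and from -0.83 to 0.21 for Mzb1. NASH+Exercise against Control ranged from -0.26 to 1.021 for Cd79b, -0.86 to 0.80 for Ms4a1, -0.0089 to 0.53 for Jchain and -0.040 to 1.01 for Mzb1. Ms4a1 in that comparison was also 0.038 with library size alone and 0.00070 on log2(TPM + 1). The cause of these changes was not tested. Of 231 repeats of the ratios, 21 changed sign, 0 of them among the ratios to Ptprc against Control.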
